A study of Mus musculus with 5 samples.

Results

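Y RNAs, U-series RNAs and other short noncoding RNAs that fold into fixed structures were followed through an RNA immunoprecipitation (RIP) experiment in mouse embryonic stem cells. Their probe sets were those with 1 gene symbol in the platform annotation that begins with Rny or with Rnu and a digit, or that is Rmrp, Rpph1, Terc, Rn7sk or Rn7s1. Of 12 such probe sets, 10 were chosen by the highest mean log2 value over the 5 arrays, out of 21640 probe sets with 1 gene symbol. They represent 9 genes: Rny1, Rny3, Rn7sk (2 probe sets), Rpph1, Rmrp, Terc, Rnu12, Rnu3a and Rnu7. Because the mean signal chose them, their brightness is a description and not a result.

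These RNAs act as scaffolds or catalysts inside protein particles and are not translated. The Y RNAs are bound by Ro60, a ring-shaped RNA quality-control protein, and by La, which holds the uridine tail left by RNA polymerase III. The RNA encoded by Rn7sk keeps the transcription elongation kinase P-TEFb inactive. Rpph1 encodes the catalytic RNA of RNase P, which trims tRNA precursors, and Rmrp encodes its relative in RNase MRP, which cuts precursor ribosomal RNA. Terc is the template of telomerase. Rnu12 belongs to the minor spliceosome, Rnu7 guides the 3′ end cutting of histone mRNA, and Rnu3a encodes a U3 RNA, a box C/D RNA needed for the early cuts in precursor ribosomal RNA.

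The cells were R1 embryonic stem cells, a male line (129X1 x 129S1) from the blastocyst inner cell mass. Clones carried, under the constitutive pCAGGS promoter and with G418 resistance, either FLAG fused to MKRN1, a RING-domain zinc finger protein (FLAG:MKRN1), or the FLAG construct without it (FLAG:Ctrl). The labels do not say how many clones were used. Both lines started on embryonic fibroblast feeders, which passages on gelatin in LIF and serum medium were meant to clear. The 5 samples, with 1 array each, were the input RNA of either lysate, an anti-FLAG RIP of either lysate, and an IgG RIP of the FLAG:MKRN1 lysate. The IgG RIP and the anti-FLAG RIP of the FLAG:Ctrl line (FLAG:Ctrl RIP) served as background controls.

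With 1 array per sample there was no replicate error, no test could be run, and differences are given as measured, without an error; the number of arrays limits the precision. All values are the authors' log2 array values, and a log2 difference of 1 is a 2-fold difference. Mkrn1 itself did not mark the FLAG:MKRN1 line, with 11.71 in its input against 11.80 in the FLAG:Ctrl input, so the anti-FLAG RIP of that line is called the MKRN1-labelled RIP, and directions rest on the label. That array stood apart from the others, with the narrowest spread of values (SD 2.19 against 2.28 to 2.35) and the highest median (5.88 against 5.68 to 5.77). Stem cell markers lay at medians of 10.53 to 11.03 on the 5 arrays. Of 12 fibroblast markers, 4 to 6 per array lay below the level filter of 5.76 (the median of all probe-set means), and the summed linear signal of the list ran from 907 in the IgG RIP to 1605 in the FLAG:Ctrl input, with 1249 in the MKRN1-labelled RIP. Thy1 made up 942 of the signal in the FLAG:Ctrl input and 303 of that in the IgG RIP, and the other 11 markers summed to 663 and 604 there, with 760 in the MKRN1-labelled RIP. The part of these differences in the results was not tested.

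The members spanned nearly the whole range of the arrays. The probe sets of Rn7sk were brightest, with means of 13.28 and 13.10, followed by Rpph1 (11.59), Rny3 (9.68), Rmrp (8.55), Rnu12 (7.40), Rny1 (7.28), Rnu3a (6.74), Terc (5.91) and Rnu7 (4.50). Levels of different probe sets also depend on their probes, so this order says nothing about molecule numbers. Rnu7 was the dimmest probe set taken, and the brightest left out were Rnu5g (3.31) and Rnu6 (3.27), which encode spliceosomal RNAs. Of the 50 member values, 8 lay below the level filter, 5 of them in Rnu7. The range over the 5 arrays went from 0.58 for the brighter Rn7sk probe set to 4.60 for Rnu3a.

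**Figure D1:**
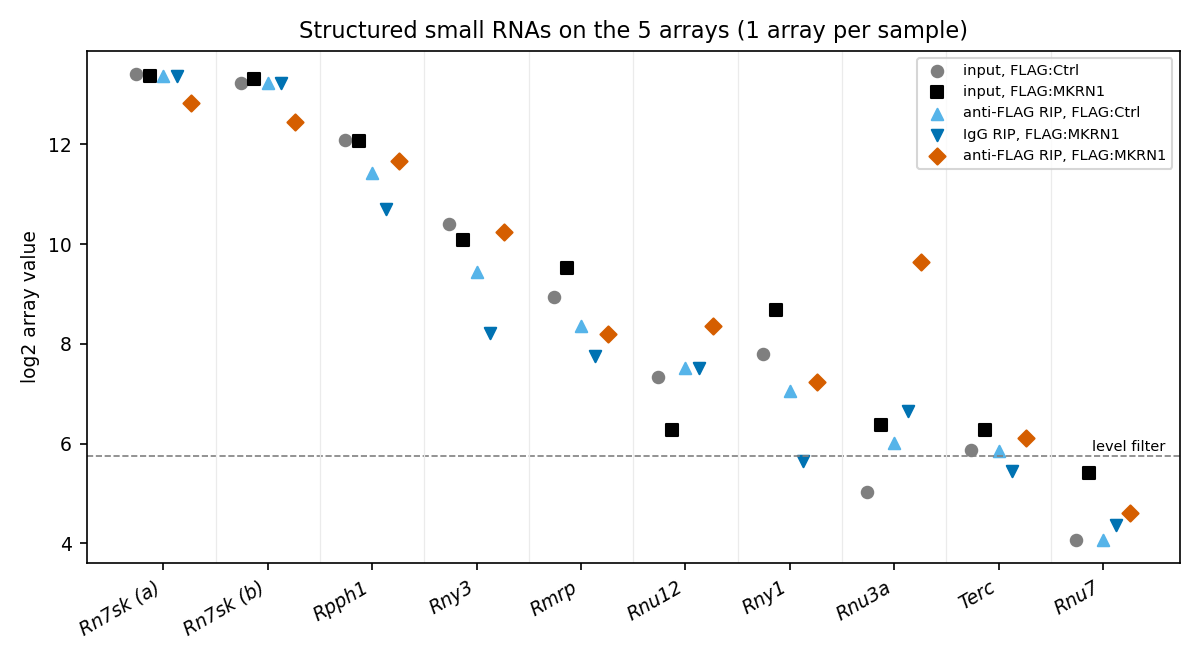
Log2 array value of the 10 probe sets on each of the 5 arrays, ordered by mean; each point is 1 array and the dashed line is the level filter of 5.76. The MKRN1-labelled RIP is the highest array for Rnu3a (9.63) and Rnu12 (8.36) and the lowest for both Rn7sk probe sets, and the IgG RIP is the lowest for 5 of the 10.

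Rnu3a was the member that differed most between the MKRN1-labelled RIP and the rest. Its log2 value was 5.03 in the FLAG:Ctrl input, 6.38 in the FLAG:MKRN1 input, 6.00 in the FLAG:Ctrl RIP, 6.65 in the IgG RIP and 9.63 in the MKRN1-labelled RIP. The MKRN1-labelled RIP alone was high, and the other 4 arrays lay between 5.03 and 6.65. Relative to its own input it was 9.54-fold higher in the MKRN1-labelled RIP, against 1.96-fold in the FLAG:Ctrl RIP and 1.21-fold in the IgG RIP. Among 11502 genes at or above the level filter it ranked 4 from the top for the difference from the IgG RIP and 7 for the FLAG:Ctrl RIP. The inputs were already apart by 1.34, or 0.62 with values raised to the level filter. With each lysate's own input subtracted, the MKRN1-labelled RIP remained 2.29 (4.88-fold) above the FLAG:Ctrl RIP.

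The Y RNAs were low in the IgG RIP. Rny3 had 10.40 in the FLAG:Ctrl input, 10.09 in the FLAG:MKRN1 input, 9.43 in the FLAG:Ctrl RIP, 8.22 in the IgG RIP and 10.24 in the MKRN1-labelled RIP. Its level in the MKRN1-labelled RIP thus lay between those of the inputs, while both control RIPs lay below them. Rny1 had 7.80, 8.67, 7.05, 5.66 and 7.24 in the same order, so that all 3 RIPs lay below both inputs. The value in the IgG RIP, 8.09-fold below input, was the lowest difference from input of the 11502 genes on that array (-2.91 instead of -3.02 with values raised to the level filter).

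Both Y RNA genes were higher in the MKRN1-labelled RIP than in the IgG RIP of the same lysate, Rny3 by 4.07-fold and Rny1 by 3.00-fold. Against the FLAG:Ctrl RIP they were 1.76-fold and 1.14-fold higher, and for Rny1 that small difference of 0.19 became -0.01 with each array centred on its median. Neither was therefore called against both control RIPs. Relative to input, Rny3 lay at 0.15 and Rny1 at -1.43 in the MKRN1-labelled RIP. In the RefSeq annotation (GRCm38.p6) the genes lie close together on 1 chromosome with a single pseudogene between them.

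The RNAs of RNase P and RNase MRP were below input in every RIP. Rpph1 had 12.08 and 12.07 in the FLAG:Ctrl and FLAG:MKRN1 inputs, 11.43 in the FLAG:Ctrl RIP, 10.71 in the IgG RIP and 11.66 in the MKRN1-labelled RIP. All RIPs were below both inputs, and the IgG RIP lowest. Rmrp had 8.94 and 9.51 in the inputs, 8.35 in the FLAG:Ctrl RIP, 7.76 in the IgG RIP and 8.20 in the MKRN1-labelled RIP. It too was below the input of the same lysate in each RIP, by 0.59 in the FLAG:Ctrl RIP, 1.76 in the IgG RIP and 1.32 in the MKRN1-labelled RIP. The difference of Rmrp between the MKRN1-labelled RIP and the FLAG:Ctrl RIP was -0.16 and turned to 0.06 after quantile normalization, so it has no settled direction.

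Terc changed little. It had 5.87 and 6.26 in the FLAG:Ctrl and FLAG:MKRN1 inputs, 5.84 in the FLAG:Ctrl RIP, 5.44 in the IgG RIP and 6.11 in the MKRN1-labelled RIP. Its whole range was 0.82, less than 2-fold, and the IgG value was below the level filter.

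Rn7sk was lower in the MKRN1-labelled RIP than on every other array. The brighter probe set read 13.41 in the FLAG:Ctrl input, 12.83 in the MKRN1-labelled RIP and 13.38 on the other 3 arrays, and the dimmer 13.31 in the FLAG:MKRN1 input, 12.44 in the MKRN1-labelled RIP and 13.24 on the other 3. The MKRN1-labelled RIP was the low array in both, 1.47-fold and 1.74-fold below each control RIP. Neither probe set reached 2-fold with the values as deposited. The brighter ranked 2287 and 2193 from the bottom of 11502 genes against the FLAG:Ctrl and IgG RIPs, so a drop of this size was common. The dimmer was 1.00 below the FLAG:Ctrl RIP with each array centred on its median. The 2 probe sets share a gene and are not independent; 3 of the 5 arrays of each carried equal values (within 1e-06), so differences among them could not be resolved.

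The U12 RNA of the minor spliceosome lay above its input in the 3 RIPs. In the FLAG:Ctrl RIP this was by 0.19, less than the SD of 0.32 of that difference over all genes, so it is not read as a direction. Rnu12 had 7.33 in the FLAG:Ctrl input, 6.27 in the FLAG:MKRN1 input, 7.52 in the FLAG:Ctrl RIP, the same 7.52 in the IgG RIP and 8.36 in the MKRN1-labelled RIP. The MKRN1-labelled RIP was the highest array and the FLAG:MKRN1 input the lowest. It was 4.25-fold above that input, where the IgG RIP was 2.37-fold above it, and it was 1.80-fold above either control RIP. The low input of the FLAG:MKRN1 line, 1.06 below that of the FLAG:Ctrl line, enters both differences from input.

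Rnu7, whose product acts on histone mRNA, stayed below the level filter on every array. Its values ran from 4.07 in the FLAG:Ctrl samples to 5.40 in the FLAG:MKRN1 input, with 4.37 in the IgG RIP and 4.61 in the MKRN1-labelled RIP. The FLAG:MKRN1 input alone was high. Its differences are counted with the others, all from values below the filter.

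Set against input, the 3 RIPs differed in the signal of these RNAs, which is relative within each array and gives no amount recovered. In the IgG RIP 5 of the 10 members were at least 2-fold below input (Rpph1, Rny3, Rmrp, Rny1 and Rnu7), where 0.461% of all genes were. Of the 9 members at or above the level filter, as the background genes are, 4 were. Low signal relative to input was not particular to the members. In a related class, 39 small nucleolar and Cajal body RNAs named by Snora, Snord and Scarna symbols, 12 (30.8%) were 2-fold below input, with a median of -0.60. Of the members, Rnu12 alone was at least 2-fold higher in the IgG RIP, against a background of 1.32%. Rnu7, at -1.03, did not keep 2-fold when arrays were centred on their medians (-0.96), when they were quantile normalized (-0.94) or when low values were set to the level filter (0.00), which left 4. Rny1, Rny3, Rmrp and Rpph1 were the genes ranked 1, 7, 11 and 21 from the bottom of 11502 for this difference. In the FLAG:Ctrl RIP the same 4 genes were below input by 0.59 to 0.96, and none of the 10 members reached 2-fold in either direction, where 0.948% of genes were higher and 0.374% lower. Rny3, at -0.96, was -1.09 after quantile normalization, and Rnu3a, at 0.97, was 1.04. In the MKRN1-labelled RIP 2 members were at least 2-fold above input, Rnu3a and Rnu12 (background 2.47%), and Rmrp and Rny1 were at least 2-fold below (background 5.51%). The medians of the members were -0.92 in the IgG RIP, -0.03 in the FLAG:Ctrl RIP and -0.48 in the MKRN1-labelled RIP, while those of all genes were within 0.01 of 0 (0.00, 0.01 and 0.00). The IgG and MKRN1-labelled RIPs share 1 input array.

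**Figure D2:**
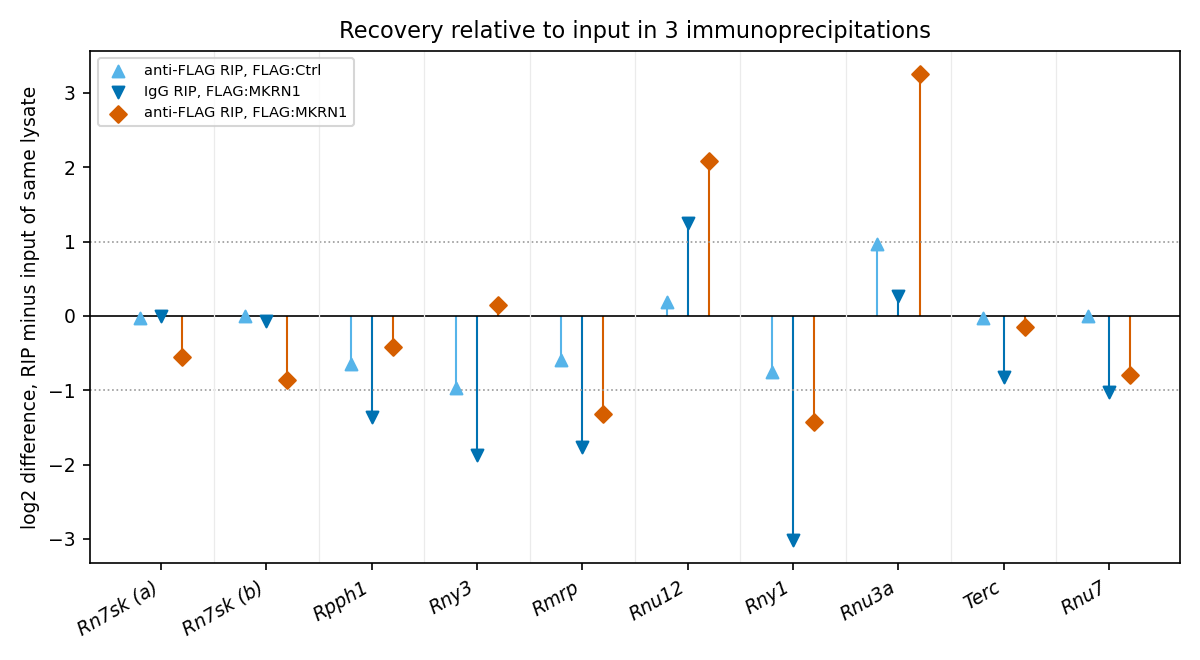
Log2 difference of each RIP from the input of its own lysate for the 10 probe sets; each point is 1 pair of arrays and dotted lines mark 2-fold. Rny1 reaches -3.02 in the IgG RIP, and Rnu3a reaches 3.25 in the MKRN1-labelled RIP.

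Which RNAs came down with FLAG:MKRN1 beyond both backgrounds was the question of the central comparison. A member was called higher where the MKRN1-labelled RIP exceeded its input and each control RIP, the latter by 2-fold or more, and lower in the mirror case. Rnu3a was the 1 member of 10 called higher, against 1.09% of genes. No member was called lower, where 5.36% of genes were. Against the FLAG:Ctrl RIP alone 1 member was at least 2-fold higher (background 1.62%) and 0 lower (7.11%), with a member median of 0.25 against -0.03 over all genes. Against the IgG RIP alone 3 were higher, Rnu3a, Rny3 and Rny1 (background 1.53%), and 0 lower (6.94%), with a median of 0.76 against -0.00. Both differences rest on 1 array of the MKRN1-labelled RIP. Rny3 and Rnu12, short of 2-fold against the FLAG:Ctrl RIP at 0.81 and 0.84, joined Rnu3a after quantile normalization at 1.07 and 1.04. Against the IgG RIP alone the 3 then became 5, with Rpph1 moving from 0.95 to 1.12 and Rnu12 from 0.84 to 1.04; with centring on genes above the filter Rpph1 was 1.09, which made 4. Of the 39 small nucleolar and Cajal body RNAs, 17 were called higher and 3 lower, with medians of 1.20 and 0.71 against the FLAG:Ctrl and IgG RIPs. Rnu3a, the 1 member called higher, also encodes a box C/D small nucleolar RNA and is outside the 39 by its symbol. Among the members, the call is therefore not one of a Y RNA or a spliceosomal RNA. Probe sets with several symbols are outside the members, and some of the Rnu1 series, which encodes spliceosomal U1 RNA, met the same rule. They exceeded the nearer control RIP by 2.86 and 1.29, while another, at 0.36, did not meet it. With 1 array per group the difference between the classes was not tested.

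**Figure D3:**
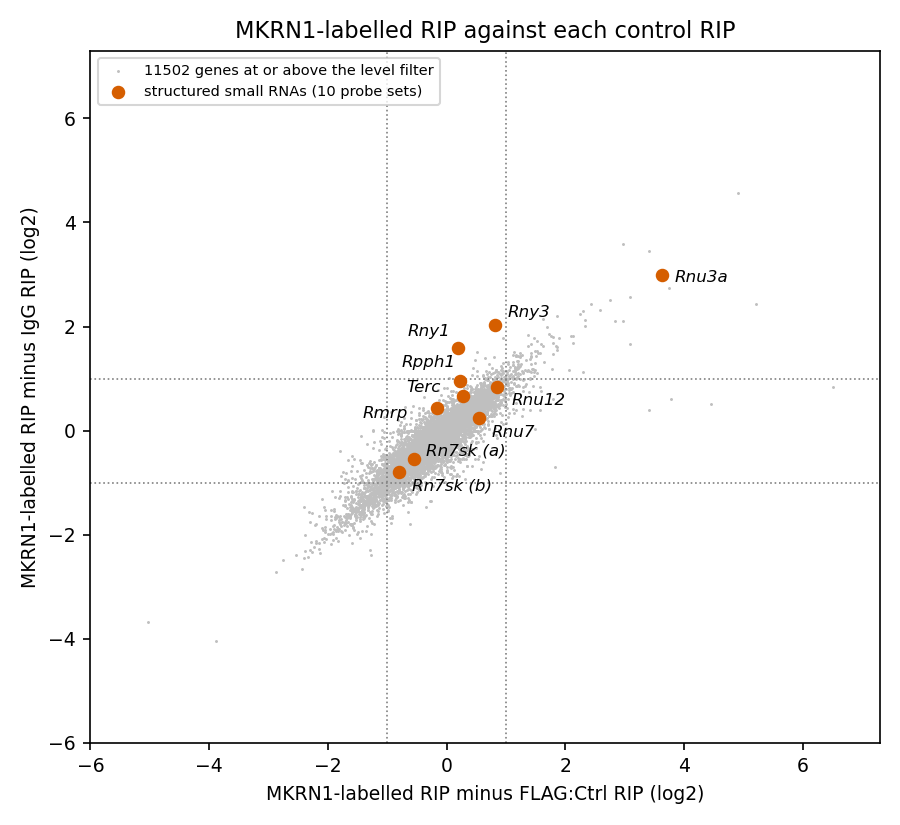
Log2 difference of the MKRN1-labelled RIP from the IgG RIP (vertical axis) and the FLAG:Ctrl RIP (horizontal axis); grey points are 11502 genes at or above the level filter, orange points the 10 probe sets, and dotted lines mark 2-fold. Both axes share 1 array, Rnu3a lies at 3.63 and 2.98, and Rny3 and Rny1 pass 2-fold on the vertical axis alone.

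Arrays that did not involve recovery with FLAG:MKRN1 also differed in these RNAs. Between the inputs Rnu3a (1.34) and Rnu7 (1.33) were at least 2-fold higher in the FLAG:MKRN1 line, against a background of 0.878%, and Rnu12 (-1.06) was lower, against 0.791%. With values raised to the level filter Rnu12 was the 1 gene of these at 2-fold. Rnu7, below the filter, is outside the genes that give the background. Of the 39 small nucleolar and Cajal body RNAs, 12 (30.8%) were at least 2-fold higher in the FLAG:MKRN1 input and 1 lower, with a median of 0.56. Rny1 was 0.87, Rmrp 0.57 and Terc 0.39 higher in the FLAG:MKRN1 input, Rny3 was 0.30 lower, and Rpph1 and Rn7sk differed by at most 0.07. Fewer cells holding an RNA and less of it per cell cannot be told apart in such bulk lysates. Between the control RIPs, Rny1 (1.39) and Rny3 (1.21) were at least 2-fold higher in the FLAG:Ctrl RIP than in the IgG RIP, ranking 3 and 10 from the top where 0.174% of genes passed. None of the members was 2-fold lower, against 0.278%. Rpph1 (0.72), Rmrp (0.60) and Terc (0.40) lay the same way, and Rnu3a (-0.65) and Rnu7 (-0.31) the other. The Rn7sk probe sets and Rnu12 were equal on the 2 arrays, as were 17.8% of all genes. The SD of the difference between the control RIPs was 0.65 over the 10 members and 0.24 over all genes. The antibody and the lysate both differ between these arrays and cannot be told apart.

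The members fell into unlike patterns over the 5 arrays. The likeness was taken as the Euclidean distance between log2 values after subtraction of each gene's mean over the 5 arrays. The nearest pair of different genes, of 45 pairs, was Rpph1 and Rmrp at 0.65, and the farthest was Rny1 and Rnu3a at 4.39. Among all genes at or above the level filter, the nearest to Rny1 were Rmrp (0.99), Tmem108 (1.09) and Rny3 (1.18). The nearest to Rnu3a were Depdc1a (0.82), the beta-thymosin gene Tmsb15a (1.17) and the box C/D RNA gene Snord38a (1.23). Each had its highest value in the MKRN1-labelled RIP (10.25, 9.12 and 10.89), which follows from the choice by likeness to Rnu3a and is no separate result. These distances rest on 5 arrays and describe them only.

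The mRNAs of proteins that bind, make or trim these RNAs held more calls in the lower direction than in the higher one in that RIP. Of 165 genes on 13 lists, each at or above the level filter, 0 were called higher, where 1.09% of all genes were. Lower calls numbered 17 (10.3%), against 5.36% of all genes. With the level filter at the 75th percentile, 9.05% of genes were called lower. The lower share thus rose with signal level, and that of the lists lay near the share among brighter genes. The 17 became 10 after quantile normalization, with 2 called higher, and 11 with each array centred on the genes above the level filter, with 1 called higher. Their medians were -0.30 against the IgG RIP and -0.32 against the FLAG:Ctrl RIP. By list, 5 of 25 genes of snRNA transcription, 3′ processing and export were called lower, 2 of 7 of the 7SK particle, 2 of 15 of the U4, U5, U6 and minor snRNPs, 2 of 12 of the SMN complex, and 1 each of 17 for U3 and box C/D, 11 for RNase P and MRP, 8 for telomerase, 12 for U1 and U2, 14 for RNA polymerase III and 19 for the exosome. None was called among 3 Y RNA proteins, 15 Sm and LSm proteins and 7 of the signal recognition particle.

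The genes called lower are named here after their values were seen. The farthest were Ccnt1 (-2.14 from the FLAG:Ctrl RIP, -2.15 from the IgG RIP) and Ccnt2 (-2.06 from each), which encode the cyclins of P-TEFb. They were followed by Gemin6 (-1.62 and -1.78) and Ddx20 (-1.46 and -1.74) of the SMN complex, Prpf8 (-1.59 and -1.81), the core protein of the U5 particle, Utp20 (-1.53 and -1.72), a part of the processome that holds U3, and Sf3b1 (-1.49 from the FLAG:Ctrl RIP and nearly the same from the IgG RIP), which helps U2 bind the branch point. The other 10 were Pop4, Dkc1, Snrnp200, Snapc3, Ints2, Ints4, Ints8, Ints9, Bdp1 and Mtrex, with differences from -1.43 to -1.01.

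Partners of single members, fixed by role, are given with the MKRN1-labelled RIP set against the FLAG:Ctrl RIP first and the IgG RIP second. Ro60 differed by -0.37 and 0.00, and Ssb, which encodes La, by -0.10 and -0.16. Of the box C/D core proteins, which coat U3 RNA, Fbl, the methyltransferase, differed by -0.999 and -1.01, Nop56 by -0.91 and -1.01, and Nop58 by -0.67 from each, while Snu13, named after its values were seen, differed by 0.03 and 0.12. Rrp9, which binds U3 RNA in particular, differed by -0.40 and -0.22. Of the 7SK particle, Larp7 differed by -0.45 and -0.76, the methylphosphate capping enzyme gene Mepce by -0.23 and -0.14, and Hexim1, which encodes the P-TEFb inhibitor, by -0.09 and -0.06; its relative Hexim2, also named afterwards, differed by 0.55 and 0.57. Of the RNase P and MRP proteins, Pop1 differed by -1.01 and -0.75 and Rpp30 by -0.15 and -0.59. Dkc1, the pseudouridine synthase of box H/ACA particles and telomerase, was called lower at -1.04 and -1.02, a call lost after quantile normalization and with centring on genes above the filter, and Tert, the reverse transcriptase, read the same 6.21 in all 3 RIPs.

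Of the Sm proteins shared by spliceosomal RNAs, Snrpb differed by 0.00 and 0.24 and Snrpd1 by -0.34 and -0.53. Of the proteins specific to 1 particle, Snrnp70 of U1 differed by 0.21 and 0.23, and Snrpa1 of U2 by -0.31 and -0.25. The assembly factor gene Smn1 differed by -0.30 and -0.43, the snRNA export adaptor gene Phax by -0.47 and -0.60, and Srp14 of the signal recognition particle by 0.20 and 0.39. Polr3a, the largest subunit of RNA polymerase III, differed by -0.56 from each, the exosome nuclease gene Exosc10 by -0.91 and -0.69, and the deadenylase gene Parn by -0.41 and -0.33.

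**Figure D4:**
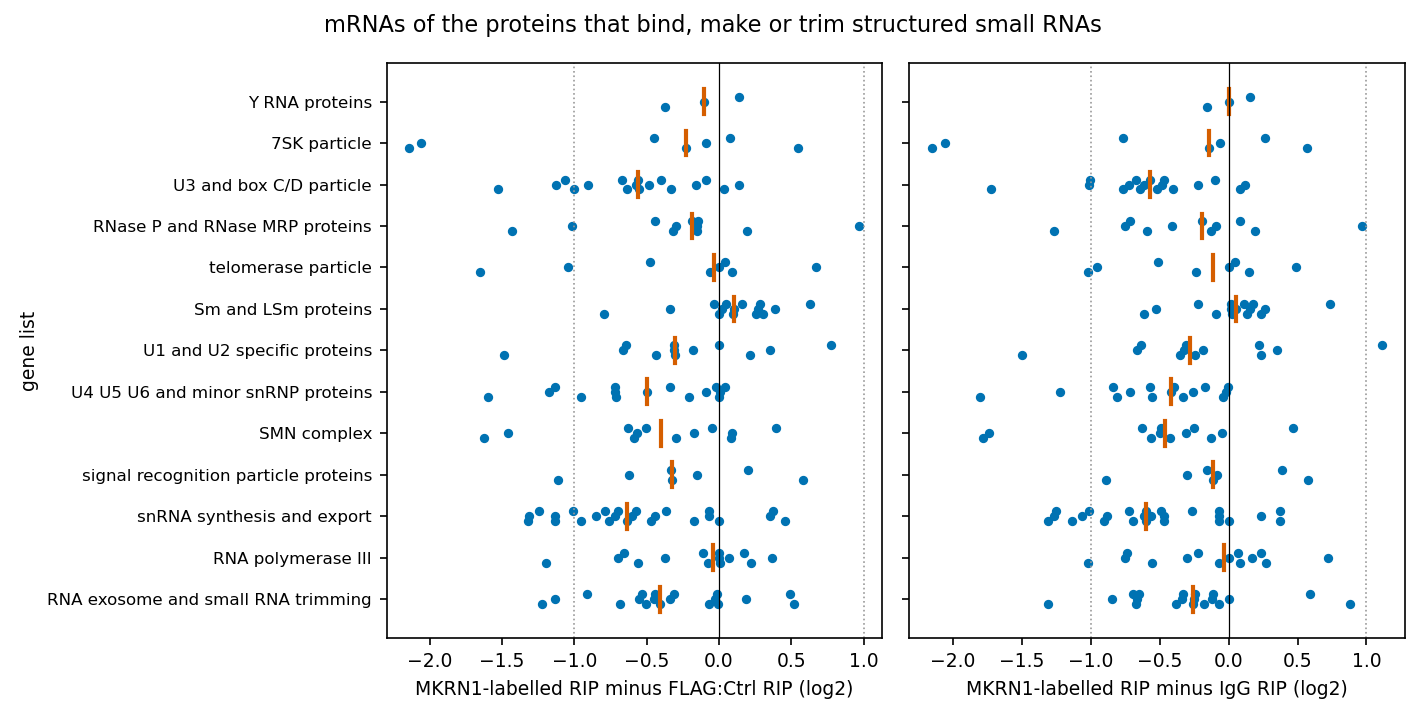
Log2 difference of the MKRN1-labelled RIP from the FLAG:Ctrl RIP (left) and the IgG RIP (right) for 165 genes on 13 lists; each point is 1 gene, orange bars are list medians and dotted lines mark 2-fold. The genes beyond 2-fold lie almost wholly on the low side, 20 on the right and 25 on the left, with 1 and 0 on the high side.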

How the data were processed

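Log2 values of 34760 probe sets on 5 arrays were taken from the authors' deposited table. Their range (2.56 to 14.4) gave the scale; background correction, summarisation, normalization and genome build were not given in the sources used here. Labelling used biotin and Affymetrix procedures, per the labels. Of the probe sets, 21640 had 1 gene symbol, 1321 several and 11799 were not named; 21553 matched RefSeq (GRCm38.p6), used for symbols and neighbours only. The probe set with the highest mean stood for each of 19937 genes, and 11502 at or above the level filter (5.76) form the background. Calls were differences of at least 2-fold between single arrays, with no test and no replicate check. A call higher or lower needed 2-fold against both control RIPs and the same side of input. All members were named, with 23 partner genes chosen by role and the 3 nearest patterns of Rny1 and Rnu3a. The members and lists were chosen with earlier results of these data known. The calling rule was tested on simulated data with equal noise on every array. In the real data, differences of the MKRN1-labelled RIP from the FLAG:Ctrl and IgG RIPs had SDs of 0.57 and 0.55. Between the control RIPs the SD was 0.24. The simulation therefore says nothing about false calls on these arrays. Alternatives changed scaling, thresholds, level filter, controls and probe-set choice. Python 3.11.15 with pandas 2.3.3 was used.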

Additional observations from a re-analysis of the deposited data

Results flagged for a closer look

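Rny3 lay 0.15 above input in the anti-FLAG RIP of the FLAG:MKRN1 line. That is small beside the SD of 0.57 of this difference over all genes, so it is not read as a direction. In the anti-FLAG RIP of the FLAG:Ctrl line Rny3 lay 0.96 below input, which made a gap of 1.11 on the log2 scale between the lines. Each line had 1 array per sample, so this difference was not tested. The gap was 2.29 for Rnu3a and 1.90 for Rnu12, both above input in both lines, though Rnu12 by only 0.19 in the FLAG:Ctrl line.

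Signal was also seen in probe sets that no comparison used because the annotation gives them several gene symbols. Of 8 such probe sets with a symbol of the same name series, 3 met the rule for a higher call in the MKRN1-labelled RIP, and 0 that for a lower one. One with 4 symbols, all of the Rnu3 series, read 8.23 in the FLAG:Ctrl RIP, 8.67 in the IgG RIP, and 9.46 and 9.94 in the FLAG:Ctrl and FLAG:MKRN1 inputs; the MKRN1-labelled RIP exceeded the nearer control RIP by 2.33 and its input by 1.06. The others, with 3 symbols of the Rnu1 series each, exceeded it by 2.86 and 1.29. These cannot be assigned to a gene.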

How the results depend on the processing

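Each array was 1 sample, so no value could be checked against a replicate, and array signal has no depth to set a limit. No paired analysis was possible because each group has 1 array. In the MKRN1-labelled RIP, Rnu3a was called higher under every alternative run. The count of members called higher, 1 as reported, was 3 after quantile normalization and at 1.5-fold (Rny3 and Rnu12 added), and 2 with the trend with signal level removed, with the IgG RIP alone and with each RIP's own input subtracted (Rny3 added). The count called lower, 0, was 1 at 1.5-fold (1 Rn7sk probe set). Members past 2-fold of input in the FLAG:Ctrl RIP, 0 as reported, were 1 with arrays centred on all probe sets or on genes above the level filter (the latter added after seeing the data) and with the trend removed, 2 after quantile normalization and 5 at 1.5-fold. At 4-fold the counts fell from 4 to 2 for the MKRN1-labelled RIP against input, from 6 to 1 for the IgG RIP, from 3 to 0 between inputs and from 2 to 0 between control RIPs. The last was 5 at 1.5-fold, and that between inputs was 1 with values raised to the level filter. Partner genes called lower, 17 as reported, were 10 after quantile normalization, 11 with centring on genes above the filter and 24 with centring on all probe sets. Centring on all probe sets moved the median of all genes against the FLAG:Ctrl RIP from -0.03 to -0.23, and centring on genes above the filter moved it to 0.14. The share of genes called lower, 5.36%, was 3.10% with no level filter and 9.05% at the 75th percentile; that called higher was 0.722% with no filter. Of 70 single differences, 4 changed sign with each array centred, 4 after quantile normalization and 2 with centring on genes above the filter, and none of these was past 2-fold.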

Other observations

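Other probe sets with several symbols lay below input in the RIPs. One with 2 symbols of the Rn7s series read 13.37 and 13.43 in the FLAG:Ctrl and FLAG:MKRN1 inputs, 10.97 in the FLAG:Ctrl RIP, 9.92 in the IgG RIP and 11.29 in the MKRN1-labelled RIP. The 3 that pair a Rnu2 symbol with a protein-coding gene differed from input by -1.54 to -1.01 in the FLAG:Ctrl RIP, -2.40 to -2.10 in the IgG RIP and -1.88 to -0.98 in the MKRN1-labelled RIP. A probe set with 3 Rnu1 symbols lay above input in every RIP, by 2.89, 0.94 and 2.82, unlike the 2 other probe sets with the same symbols, which differed from input by -0.42 to -0.08 in the control RIPs.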
